A study of Mus musculus with 8 samples.

Results

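The comparison described here set 2i medium against Std medium in mouse embryonic stem cells grown on laminin-511 (LN511). Its libraries were chosen by sample title, 2 from cells in 2i and 2 from cells in Std medium, 4 of the 8 RNA-seq libraries of the series. All cells were of 1 line, Bruce 4, a male embryonic stem cell line from C57BL/6J mice, and had spent 2 weeks in their condition. Std is the submitters' name for a medium whose composition is not given in the sources used here, and 2i is a medium with inhibitors of the kinases MEK and GSK3. The other 4 libraries, from the same cells on gelatin with 2 libraries in each medium, were used as the comparison coating. The series' design text calls the 2 libraries of a group biological replicates, but the labels do not say that they came from separate cultures, so p-values here measure only the spread between these libraries.

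Laminin-511 is a basement membrane protein, a trimer of the products of Lama5, Lamb1 and Lamc1, that pluripotent cells bind mainly through the integrin made of the Itga6 and Itgb1 products. Inside the cell, bound integrins are coupled to actin filaments by talin, vinculin, zyxin and filamin, neighbouring cells are joined by cadherins, claudins and connexins, and the products of Krt8 and Krt18 pair into the intermediate filaments of simple epithelia. Inhibition of GSK3 stabilises beta-catenin, which activates Wnt target genes together with TCF and LEF factors, and inhibition of MEK shuts off ERK signalling, a combination known for holding embryonic stem cells in the naive state.

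Expression is given in FPKM, the authors' fragment counts scaled to transcript length and library size, summed here over the RefSeq transcripts of each gene. Differences are 2i minus Std in log2(FPKM + 1), a scale that understates the change of low genes, and carry a standard error (SE). A gene passed where its limma adjusted p (Benjamini-Hochberg, over the 10278 genes tested) was under 0.05, and "rose" and "fell" are used of such genes only. The most common low value, taken as 1 fragment, put the depth of the libraries at 2210000 to 2710000 fragments. It was looked for only within a set range of depths, so a depth outside that range would have been missed. At the depth found, 1 fragment on a transcript of 2000 bases is worth 0.185 to 0.226 FPKM, so low values are coarse. Fragment numbers given for genes rest on this depth and are approximate. Across genes, the Pearson correlation of log2(FPKM + 1) between replicates was 0.964 in Std and 0.96 in 2i on LN511, and 0.909 to 0.91 between the groups. The summed level of 8 defining markers of embryonic stem cells was 2333 and 2623 FPKM in Std and 1972 and 2109 FPKM in 2i. Pou5f1 alone was at 1073 and 1113 FPKM in Std and 1109.8 and 1245 FPKM in 2i. Not every member was high or steady. Of the 7 tested, 2 rose and 2 fell, where 8.58% of all genes rose and 9.95% fell. Fut4 was too low to test, at about 9 and 6 fragments in Std and 0 and 0 in 2i. The libraries are bulk samples, in which fewer cells of a type and less RNA per cell cannot be told apart.

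On LN511, 1905 of the 10278 genes passed, which is 18.5%. Of these, 882 (8.58%) rose and 1023 (9.95%) fell in 2i, and 524 (5.10%) and 629 (6.12%) did so by 1 or more on the log2 scale. In each of the 1905 genes both 2i libraries lay on the same side of both Std libraries. Such a separation of the 4 libraries was common, occurring upward in 27.7% and downward in 32.0% of all genes tested. The median difference over all genes tested was -0.04, and 52.4% of them were lower in 2i. Libraries are numbered by their replicate in the labels. The count depended on single libraries, being 863 without Std library 1 on LN511, 861 without Std library 2 on LN511 and 1211 without 2i library 2 on LN511. A fit of the 4 LN511 libraries alone called 962 genes, and the authors' deposited gene table, which lists many expressed genes at 0 and left 2784 genes to test, called 326.

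**Figure D1:**
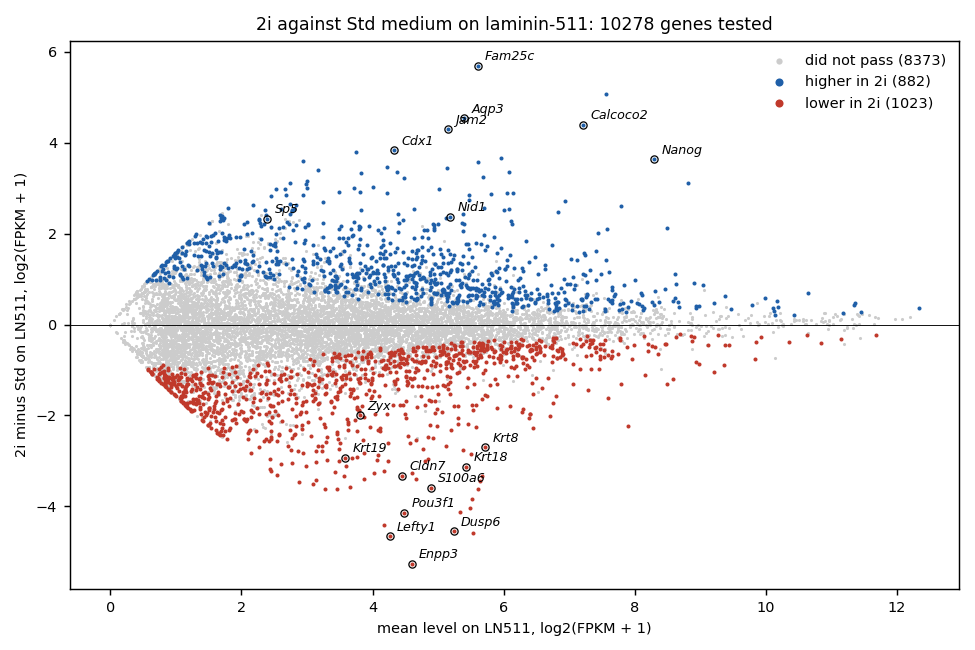
Difference between 2i and Std medium on LN511 (vertical axis, log2(FPKM + 1)) against the mean level over the 4 LN511 libraries (horizontal axis, log2(FPKM + 1)) for the 10278 genes tested, 1 point per gene. Blue points are the 882 genes that rose, red points the 1023 that fell and grey points the others. Fam25c is the highest labelled point and Enpp3 the lowest, and Krt8, Krt18, Krt19, Cldn7 and S100a6 lie between -2.5 and -4 among genes of intermediate level.

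Most of the genes with the largest rises were low in Std. Aqp3, a water and glycerol channel of epithelial cells, was at 2.60 and 2.33 FPKM in Std and 73.4 and 85.9 FPKM in 2i (log2 4.54, SE 0.17, limma adjusted p = 4.8e-05). Calcoco2, an autophagy receptor, was at 12.3 and 12.6 FPKM in Std and 274 and 291 FPKM in 2i (log2 4.40, SE 0.10, limma adjusted p = 1.45e-05). In neither gene did a Std library come near a 2i library. Jam2, a junctional adhesion molecule that is also a marker of the naive state, was at 3.21 and 1.80 FPKM in Std and 62.7 and 70.8 FPKM in 2i (log2 4.30, SE 0.25, limma adjusted p = 0.000191). Fam25c (log2 5.70, adjusted p = 0.000805), 2210409E12Rik (log2 5.07, adjusted p = 0.000191), the ubiquitin-like gene Ubd (log2 3.80, adjusted p = 0.00902), the apolipoprotein gene Apom (log2 3.60, adjusted p = 0.000751) and the Wnt target Cdx1, described below, completed the upper end together with Nanog and Tfcp2l1 of the naive network. Nanog, a homeodomain factor, was at 48.4 and 43.2 FPKM in Std and 550.2 and 614 FPKM in 2i (log2 3.64, SE 0.09, limma adjusted p = 1.45e-05). Ubd did not pass with a pseudocount of 0.1 or a fit of the 4 LN511 libraries alone (adjusted p 0.0533 to 0.0613).

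At the lower end stood Enpp3, an ectonucleotidase of the cell surface, which was at 42.1 and 50.2 FPKM in Std and 0.149 and 0.304 FPKM in 2i (log2 -5.26, SE 0.22, limma adjusted p = 6.67e-05). Dusp6, the phosphatase that ERK signalling induces against itself, was at 68.8 and 74.1 FPKM in Std and 2.78 and 1.52 FPKM in 2i (log2 -4.55, SE 0.22, limma adjusted p = 0.000116). Both genes kept only a small part of their Std level in 2i. The Nodal antagonist Lefty1 was at 33 and 38.5 FPKM in Std and 1.12 and 0 FPKM in 2i (log2 -4.65, SE 0.35, limma adjusted p = 0.000471), and the zinc transporter gene Slc39a14 at 31.3 and 35.3 FPKM in Std and 1.58 and 0 FPKM in 2i (log2 -4.41, SE 0.42, limma adjusted p = 0.00114). The imprinted genes Peg10 (log2 -4.59, adjusted p = 0.000956) and H19 (log2 -4.03, adjusted p = 0.00331), the factors Pou3f1 (log2 -4.14, adjusted p = 0.00011) and Tcf15 (log2 -4.12, adjusted p = 0.00037), the DNA methyltransferase gene Dnmt3a (log2 -3.85, adjusted p = 4.8e-05) and Tor3a, of the torsin ATPases (log2 -3.63, adjusted p = 0.000582), were the others. H19 did not pass with a pseudocount of 0.1 (adjusted p = 0.0751). Dnmt3a is 1 of the genes that the authors' deposited gene table puts on the other side, at a log2 difference of 2.58 (adjusted p = 0.0976).

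Keratins of simple epithelia were among the genes that fell most. Of the list of keratins and other genes of epithelial filaments, 17 of the 22 were tested and 5 were too low. Among those tested 2 rose, 8 fell and 7 did not pass, where 8.58% of all genes rose and 9.95% fell. Their median log2 difference was -0.64, against -0.04 over all genes. A low gene is tested only where some group carries it, so such counts describe the list and are no test of it. Single libraries moved the counts, to 1 higher and 5 lower without Std library 2 on LN511 and 2 higher and 5 lower without 2i library 2 on LN511. On gelatin, 4 of the same 17 genes rose and 3 fell, with a median of -0.02.

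Krt8 (mm10 chromosome 15, 101996711 to 102004342), a type II keratin, was at 87.3 and 93.4 FPKM in Std and 12.5 and 13.6 FPKM in 2i. Its partner Krt18 (mm10 chromosome 15, 102028216 to 102032026), a type I keratin, was at 75.5 and 76.7 FPKM in Std and 5.76 and 10.6 FPKM in 2i. Krt19, another type I keratin of simple epithelia, was at 21.9 and 18.4 FPKM in Std and 1.51 and 2.06 FPKM in 2i. Every Std library on LN511 was thus several times above every 2i library for all 3 genes. The difference was log2 -2.70, SE 0.16, limma adjusted p = 0.000206 for Krt8, log2 -3.13, SE 0.26, limma adjusted p = 0.00071 for Krt18 and log2 -2.93, SE 0.28, limma adjusted p = 0.0012 for Krt19. Per unit of length, Krt8 and Krt18 stood at similar levels in Std. Krt7, the type II keratin of ducts and trophoblast, was at 10.2 and 7.65 FPKM in Std and 1.14 and 0.289 FPKM in 2i (log2 -2.57, SE 0.46, limma adjusted p = 0.0125). Krt7 did not pass without either Std library on LN511 or 2i library 2 on LN511 (adjusted p 0.0524 to 0.0739). Krt7 did not pass with the authors' deposited gene table (adjusted p = 0.0647).

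Krt8 and Krt18 are neighbours that are read in opposite directions from starts 23873 bases apart. The 250 bases upstream of each start, from RefSeq for GRCm38.p6, are shown because these 2 genes fell together on LN511. The first is chr15:102004343-102004592, minus strand and the second chr15:102027966-102028215, plus strand, each written 5′ to 3′ on the strand of its gene.
Krt8: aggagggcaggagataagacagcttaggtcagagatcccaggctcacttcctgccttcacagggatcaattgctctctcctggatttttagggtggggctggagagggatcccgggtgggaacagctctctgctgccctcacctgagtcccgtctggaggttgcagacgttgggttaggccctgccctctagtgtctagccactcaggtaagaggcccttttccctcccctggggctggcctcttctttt
Krt18: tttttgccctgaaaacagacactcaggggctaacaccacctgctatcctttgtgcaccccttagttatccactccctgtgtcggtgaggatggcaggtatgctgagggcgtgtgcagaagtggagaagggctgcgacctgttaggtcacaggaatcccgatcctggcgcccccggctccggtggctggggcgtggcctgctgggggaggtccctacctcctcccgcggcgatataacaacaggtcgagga
The motifs were 4 in number and were searched on both strands in windows of 300 bases, from 250 before a gene's start to 50 after it: TCAAAG, the core of TCF/LEF sites, TGANTCA, bound by AP-1, GGAATG, bound by TEAD factors, and the CArG box of SRF. None of the 4 occurs in either sequence shown, so no letter is in capitals. Over all 32851 promoter windows of the RefSeq table, 16% hold the TCF/LEF core, 7.8% the AP-1 motif, 14.7% the TEAD motif and 1.6% a CArG box. Of the 6 windows found for the 8 genes of the list that fell, 1 holds the TEAD motif and none the others. A match or its lack in such a window is a description of the letters only.

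Sfn, an epithelial 14-3-3 protein that binds keratins, was the most abundant gene of the list that fell, at 124 and 132 FPKM in Std and 41.2 and 47.2 FPKM in 2i (log2 -1.52, SE 0.12, limma adjusted p = 0.000546). Perp, a membrane protein of desmosomes, was at 32.4 and 30.4 FPKM in Std and 5.54 and 3.29 FPKM in 2i (log2 -2.61, SE 0.29, limma adjusted p = 0.00207). Neither gene had a 2i library near its Std libraries. Genes of other filaments moved both ways: Nes, which encodes nestin, fell (log2 -1.48, adjusted p = 0.0176), while Vim, the mesenchymal filament vimentin, rose from 45.4 and 47.1 to 64.2 and 70.1 FPKM (log2 0.53, adjusted p = 0.0125), and Lmna, the nuclear lamin, rose as well (log2 1.14, adjusted p = 0.00344). Nes did not pass without Std library 2 on LN511 or either 2i library on LN511 (adjusted p 0.0646 to 0.0688) and Vim did not pass without either Std library on LN511 (adjusted p 0.0523 to 0.0646). Nes and Vim did not pass with a fit of the 4 LN511 libraries alone (adjusted p 0.0531 to 0.0756).

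Junction genes moved in both directions. Of the cell junction list, 49 of the 64 were tested, 9 were too low, 4 were set aside for doubtful zeros and 2 were not analysed here. Among those tested 7 rose, 19 fell and 23 did not pass, with a median log2 difference of -0.64. The share that fell, 19 of 49, is to be read against 9.95% over all genes, and the 7 that rose against 8.58%. The same members gave another count on gelatin, where 10 rose and 13 fell, with a median of -0.23. With 1 library left out there were 4 higher and 10 lower without Std library 1 on LN511, 5 higher and 12 lower without Std library 2 on LN511, 4 higher and 14 lower without 2i library 1 on LN511 and 6 higher and 12 lower without 2i library 2 on LN511.

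Among tight junction genes, Cldn7, a claudin that seals the space between epithelial cells, was at 38.8 and 38.5 FPKM in Std and 2.27 and 3.81 FPKM in 2i (log2 -3.32, SE 0.25, limma adjusted p = 0.000475). Cldn4, a second claudin, was at 97.1 and 91.9 FPKM in Std and 49.4 and 50.3 FPKM in 2i (log2 -0.91, SE 0.08, limma adjusted p = 0.00104). Cgn, the tight junction scaffold cingulin, was at 19.4 and 23.1 FPKM in Std and 7.51 and 5.99 FPKM in 2i (log2 -1.52, SE 0.19, limma adjusted p = 0.00331). Of these 3 genes Cldn7 lost the largest part of its level, and no 2i library of any of them reached a Std library. Lsr, the angulin of tricellular junctions, fell (log2 -1.42, adjusted p = 0.00196), and so did Crb3, the Crumbs protein that sets the apical membrane (log2 -2.29, adjusted p = 0.00313).

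At adherens and gap junctions, Cdh1, E-cadherin, was at 146 and 142 FPKM in Std and 79.8 and 101 FPKM in 2i (log2 -0.68, SE 0.13, limma adjusted p = 0.0147). The groups did not overlap, and Cdh1 remained at a high level in 2i. Gja1, a connexin of embryonic stem cell gap junctions, was at 94.5 and 89 FPKM in Std and 21.1 and 29.3 FPKM in 2i (log2 -1.84, SE 0.17, limma adjusted p = 0.000919). Both of its 2i libraries lay far below its Std libraries. Jam2, given above, rose, as did Spint1, an inhibitor of membrane serine proteases of epithelia, at 16.1 and 11.2 FPKM in Std and 67.5 and 66.7 FPKM in 2i (log2 2.24, SE 0.18, limma adjusted p = 0.000548). Epcam, an epithelial adhesion molecule, could not be tested because 1 gelatin Std library is listed at 0, and on LN511 it was at 45.1 and 50.9 FPKM in Std and 41.2 and 26.5 FPKM in 2i. Cdh1 did not pass without either Std library on LN511 (adjusted p 0.0677 to 0.0778). Cdh1 did not pass with a fit of the 4 LN511 libraries alone (adjusted p = 0.0621).

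Annexins, which bind membranes in the presence of calcium, fell more often than they rose. Of the annexins, 8 of the 12 were tested, 3 were too low and 1 was not analysed here, Anxa2 being the last of these. Among those tested 1 rose, 4 fell and 3 did not pass, where 8.58% of all genes rose and 9.95% fell. Their median log2 difference was -0.74. Anxa3 was at 20.8 and 17.8 FPKM in Std and 3.80 and 3.16 FPKM in 2i (log2 -2.18, SE 0.34, limma adjusted p = 0.00749). Anxa5 was at 9.99 and 11.3 FPKM in Std and 1.55 and 3.55 FPKM in 2i (log2 -1.77, SE 0.32, limma adjusted p = 0.012), and Anxa1 at 7.28 and 8.32 FPKM in Std and 1.65 and 2.36 FPKM in 2i (log2 -1.56, SE 0.26, limma adjusted p = 0.00887). In these 3 genes no 2i library reached the level of a Std library on LN511. Anxa11 fell less (log2 -0.78, adjusted p = 0.0169), and Anxa7 rose (log2 0.77, adjusted p = 0.00475). The counts moved to 1 higher and 1 lower without either Std library on LN511. Anxa1 did not pass without Std library 2 on LN511 (adjusted p = 0.0573), Anxa3 did not pass without Std library 1 on LN511 (adjusted p = 0.0519) and Anxa5 and Anxa11 did not pass without either Std library on LN511 (adjusted p 0.0572 to 0.0854). Anxa5 and Anxa11 did not pass with a fit of the 4 LN511 libraries alone (adjusted p 0.063 to 0.0756).

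Of the S100 and galectin list, 11 of the 24 were tested, 11 were too low and 2 were set aside for doubtful zeros. Among those tested 1 rose, 2 fell and 8 did not pass, where 8.58% of all genes rose and 9.95% fell. Their median log2 difference was -0.66. S100a6, a calcium sensor common in epithelial and mesenchymal cells, was at 52.7 and 54.4 FPKM in Std and 2.34 and 5.16 FPKM in 2i (log2 -3.59, SE 0.37, limma adjusted p = 0.0015). Lgals1, galectin-1, which binds sugars of the matrix and the cell surface, was at 125 and 141 FPKM in Std and 34.9 and 31.4 FPKM in 2i (log2 -1.97, SE 0.15, limma adjusted p = 0.000477). Neither gene had a 2i library above a small part of the Std level. S100a11, another S100 protein, rose from 204 and 196 to 264 and 309.8 FPKM (log2 0.51, adjusted p = 0.0243). These counts became 0 higher and 2 lower without either Std library on LN511 or 2i library 2 on LN511 and 2 higher and 3 lower without either Std library on gelatin. S100a11 did not pass without either Std library on LN511 or 2i library 2 on LN511 (adjusted p 0.0898 to 0.111). S100a11 did not pass with a fit of the 4 LN511 libraries alone (adjusted p = 0.0629).

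**Figure D2:**
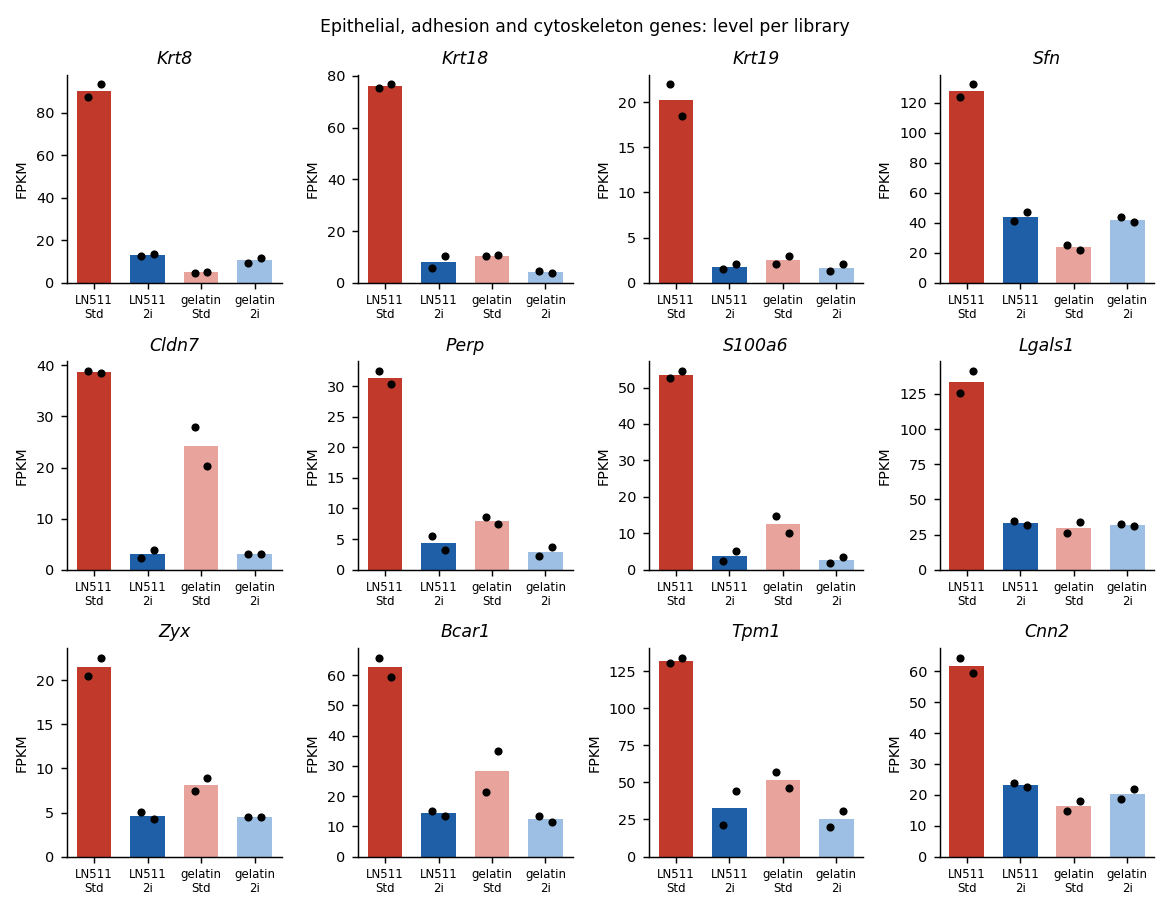
Level in FPKM (vertical axis, from 0) of 12 epithelial, adhesion and cytoskeleton genes in the 4 groups, with 1 point per library and a bar at the mean of the 2 libraries of a group. In each panel both LN511 Std libraries, in red, lie above both LN511 2i libraries. For at least Krt8, Krt18, Krt19, Sfn, Perp, S100a6, Lgals1 and Cnn2 the LN511 Std libraries also lie above all 6 others.

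**Figure D3:**
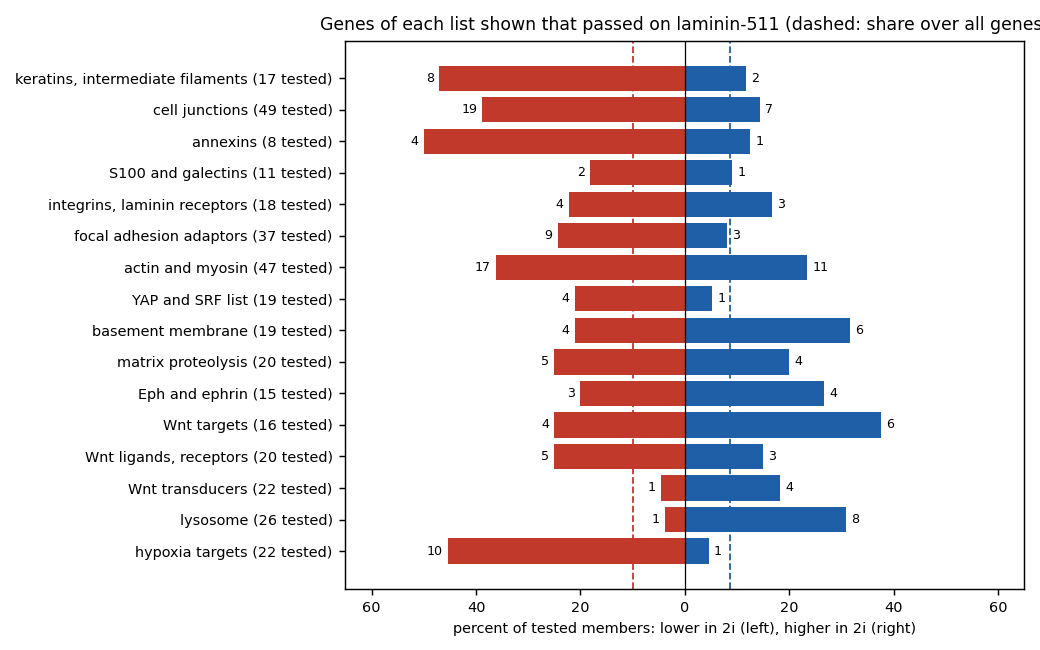
Percentage of the tested members of 16 of the lists that fell (red, left) or rose (blue, right) in 2i on LN511, with the number of genes at the end of each bar. Dashed lines mark the share over all genes tested, 9.95% lower and 8.58% higher. Among the lists drawn, the longest bars to the left belong to annexins, keratins and hypoxia targets, and the longest to the right to Wnt targets.

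Receptors for laminin and other matrix proteins moved both ways. Of the list of integrins, syndecans and other laminin receptors, 18 of the 28 were tested, 8 were too low, 1 was set aside for doubtful zeros and 1 was not analysed here, Itgb1 being the last. Among those tested 3 rose, 4 fell and 11 did not pass, where 8.58% of all genes rose and 9.95% fell. Their median log2 difference was 0.04. Itga6, the laminin-binding integrin subunit, was at 38.2 and 38 FPKM in Std and 27.7 and 27.1 FPKM in 2i (log2 -0.46, SE 0.11, limma adjusted p = 0.0289). Both 2i libraries lay below both Std libraries, by less than 1 on the log2 scale. Itga1, a collagen receptor subunit, was low throughout, at 2.06 and 1.93 FPKM in Std and 0.403 and 0.411 FPKM in 2i (log2 -1.09, SE 0.24, limma adjusted p = 0.0251). Itgb5, a subunit of vitronectin receptors, was at 19.6 and 17.5 FPKM in Std and 38.6 and 43.3 FPKM in 2i (log2 1.10, SE 0.18, limma adjusted p = 0.00836), and Cd9, a tetraspanin that associates with laminin-binding integrins, was at 120.5 and 119 FPKM in Std and 263 and 270.0 FPKM in 2i (log2 1.15, SE 0.07, limma adjusted p = 0.000212). Both of these genes were higher in each 2i library. The syndecans, proteoglycans that bind matrix through heparan sulfate, differed among themselves, as Sdc1 fell (log2 -1.26, adjusted p = 0.0185) and Sdc2 rose (log2 1.94, adjusted p = 0.00361). Single libraries moved the counts, to 3 higher and 0 lower without Std library 1 on LN511, 2 higher and 0 lower without Std library 2 on LN511, 3 higher and 1 lower without 2i library 1 on LN511 and 3 higher and 2 lower without 2i library 2 on LN511. Itga1 and Itga6 did not pass without any 1 of the 4 libraries on LN511 (adjusted p 0.0697 to 0.11), Itgb5 did not pass without Std library 2 on LN511 (adjusted p = 0.0535) and Sdc1 did not pass without either Std library on LN511 (adjusted p 0.0777 to 0.0933). Itga1 did not pass with a pseudocount of 0.1 (adjusted p = 0.102) and Itga1, Itga6 and Sdc1 did not pass with a fit of the 4 LN511 libraries alone (adjusted p 0.0604 to 0.0814).

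Inside the cell, proteins of focal adhesions fell more often than they rose. Of the list of focal adhesion adaptors, 37 of the 47 were tested, 7 were too low and 3 were set aside for doubtful zeros. Among those tested 3 rose, 9 fell and 25 did not pass, where 8.58% of all genes rose and 9.95% fell. Their median log2 difference was -0.38. Zyx, zyxin, which gathers at adhesions and stress fibres under tension, was at 20.5 and 22.5 FPKM in Std and 5.04 and 4.24 FPKM in 2i (log2 -2.0, SE 0.20, limma adjusted p = 0.00126). Bcar1, the docking protein p130Cas, was at 65.6 and 59.5 FPKM in Std and 15.1 and 13.5 FPKM in 2i (log2 -2.06, SE 0.23, limma adjusted p = 0.00213). In both genes the 2i libraries were close together and far below the Std libraries. Flnc, a filamin that crosslinks actin and binds integrins, was at 6.66 and 5.86 FPKM in Std and 0.0896 and 0.485 FPKM in 2i (log2 -2.51, SE 0.33, limma adjusted p = 0.00363), and the more abundant filamin Flna was at 101 and 99.1 FPKM in Std and 56.6 and 52.8 FPKM in 2i (log2 -0.86, SE 0.09, limma adjusted p = 0.00147). The LIM protein gene Ajuba fell (log2 -0.71, adjusted p = 0.0181), and Pdlim2, a PDZ and LIM protein, was at 2.73 and 2.29 FPKM in Std and 0 and 0 FPKM in 2i (limma adjusted p = 0.00805), so it is listed at 0 in 2i. Ajuba did not pass without Std library 1 on LN511 or 2i library 1 on LN511 (adjusted p 0.0619 to 0.0948). Ajuba did not pass with a fit of the 4 LN511 libraries alone (adjusted p = 0.0812).

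Other members of the same list were higher in 2i or did not pass. Fermt2, kindlin-2, an activator of integrins, was at 30.6 and 29.7 FPKM in Std and 55.5 and 53.1 FPKM in 2i (log2 0.83, SE 0.10, limma adjusted p = 0.00318). Tln1, talin, the protein that opens integrins, was at 14.4 and 17.8 FPKM in Std and 44.4 and 41 FPKM in 2i and did not pass (log2 1.35, SE 0.55, limma adjusted p = 0.142). Vcl, vinculin, which binds talin and actin, was at 25 and 28.1 FPKM in Std and 19.7 and 17.4 FPKM in 2i and did not pass either (log2 -0.49, SE 0.15, limma adjusted p = 0.065). In Tln1 the Std and 2i libraries on LN511 did not overlap, but its gelatin libraries ranged from 6.63 to 32.8 FPKM, and this spread enters the test. Tns1, tensin, and Vasp, an actin polymerase partner of zyxin, rose (log2 1.63, adjusted p = 0.0307 and log2 0.47, adjusted p = 0.0477). With 1 library left out there were 2 higher and 5 lower without Std library 1 on LN511, 1 higher and 6 lower without 2i library 1 on LN511, 1 higher and 9 lower without either Std library on gelatin and 1 higher and 10 lower without either 2i library on gelatin. Tns1 did not pass without Std library 1 on LN511, 2i library 1 on LN511 or any 1 of the 4 libraries on gelatin (adjusted p 0.0519 to 0.14) and Vasp did not pass without Std library 2 on LN511, either 2i library on LN511 or any 1 of the 4 libraries on gelatin (adjusted p 0.0714 to 0.191). Tns1 and Vasp did not pass with a pseudocount of 0.1 or a fit of the 4 LN511 libraries alone (adjusted p 0.0541 to 0.115) and Vasp did not pass with no filter on low values, genes with doubtful zeros kept or quantile normalization (adjusted p 0.0579 to 0.0617).

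The actin and myosin list changed in both directions. Of it, 47 of the 55 were tested, 4 were too low, 3 were set aside for doubtful zeros and 1 was not analysed here. Among those tested 11 rose, 17 fell and 19 did not pass, where 8.58% of all genes rose and 9.95% fell. Their median log2 difference was -0.07, close to the -0.04 of all genes. On gelatin 17 rose and 4 fell, with a median of 0.27. The counts moved to 6 higher and 6 lower without Std library 1 on LN511, 7 higher and 6 lower without Std library 2 on LN511 and 9 higher and 10 lower without 2i library 2 on LN511. Actb, beta-actin, did not pass, at 1275 and 1391 FPKM in Std and 1303 and 1379.8 FPKM in 2i, and its small difference of 0.01 changed sign with quantile normalization (-0.08), without Std library 1 on LN511 (-0.05) and without 2i library 2 on LN511 (-0.03).

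Among those that fell were genes of stress fibres. Tpm1, tropomyosin 1, was at 130.5 and 134 FPKM in Std and 21.4 and 44.2 FPKM in 2i (log2 -2.07, SE 0.34, limma adjusted p = 0.00897). Tpm2, tropomyosin 2, was at 23 and 18.4 FPKM in Std and 4.21 and 5.65 FPKM in 2i (log2 -1.88, SE 0.29, limma adjusted p = 0.00749). Cnn2, calponin 2, which binds actin and slows myosin, was at 64.3 and 59.5 FPKM in Std and 24 and 22.4 FPKM in 2i (log2 -1.38, SE 0.15, limma adjusted p = 0.00173). In each of them the lower Std library was well above the higher 2i library. Tmsb4x, the actin-monomer binding thymosin beta-4, was at 549.6 and 472 FPKM in Std and 192 and 218 FPKM in 2i (log2 -1.31, SE 0.11, limma adjusted p = 0.000805). Marcks, a membrane-bound actin crosslinker (log2 -1.50, adjusted p = 0.00332), and Actn4, alpha-actinin 4 (log2 -0.50, adjusted p = 0.00848), fell as well. Tpm1 did not pass without either Std library on LN511 (adjusted p 0.0533 to 0.0559) and Tpm2 and Actn4 did not pass without Std library 1 on LN511 (adjusted p 0.0533 to 0.0542). Tpm1 did not pass with a fit of the 4 LN511 libraries alone (adjusted p = 0.0506).

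For some of these genes a relative rose. Cnn3, calponin 3, was at 172 and 173 FPKM in Std and 331 and 348 FPKM in 2i (log2 0.97, SE 0.06, limma adjusted p = 0.000295), against the loss in Cnn2. Tmsb10, thymosin beta-10, was at 918 and 960.1 FPKM in Std and 1269 and 1435 FPKM in 2i (log2 0.52, SE 0.08, limma adjusted p = 0.00834), against the loss in Tmsb4x. Marcksl1, the relative of Marcks, rose too (log2 0.47, adjusted p = 0.00966). Of the other members that rose, Arpc1b, a subunit of the Arp2/3 complex, was at 38.3 and 44.8 FPKM in Std and 95.8 and 102 FPKM in 2i (log2 1.24, SE 0.13, limma adjusted p = 0.0017), while Myl12b is a myosin light chain (log2 0.82, adjusted p = 0.00169) and Lima1 bundles filaments (log2 1.20, adjusted p = 0.00397). Tmsb10 and Marcksl1 did not pass without Std library 1 on LN511 (adjusted p 0.0585 to 0.0608). Marcksl1 did not pass with a fit of the 4 LN511 libraries alone (adjusted p = 0.0553).

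The promoter of Cnn2 is shown because 3 of the 17 windows of the actin and myosin genes that fell (17.6%), those of Acta1, Actg1 and Cnn2, hold a CArG box, the site of SRF, a regulator of actin genes, against 1.6% of all windows. Among the genes of the list that rose, 2 of 14 windows (14.3%) hold one, so the box is not confined to either direction. The TEAD motif is in 5 of the 17 windows (29.4%) of genes that fell, 0 of the 14 of genes that rose and 14.7% of all windows. The AP-1 motif is in 2 and 0 of them, and the TCF/LEF core in 1 and 1. These differences were not tested. The 250 bases of Cnn2 lie at GRCm38.p6 chr10:79988350-79988599, plus strand, from RefSeq. The CArG box is in capitals, its first base at -56 from the start.
Cnn2: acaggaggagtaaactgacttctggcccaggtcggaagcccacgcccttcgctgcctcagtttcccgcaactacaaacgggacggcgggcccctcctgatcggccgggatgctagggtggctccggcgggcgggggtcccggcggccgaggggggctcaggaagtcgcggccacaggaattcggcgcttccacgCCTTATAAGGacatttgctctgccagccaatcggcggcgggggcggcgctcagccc

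YAP and SRF are factors that follow cell tension, and the list made for them, which holds targets together with the factors and their regulators, was mostly not called. On that list, 19 of the 28 were tested, 5 were too low, 2 were set aside for doubtful zeros and 2 were not analysed here. Among those tested 1 rose, 4 fell and 14 did not pass, where 8.58% of all genes rose and 9.95% fell. Their median log2 difference was -0.36. Ccn1, a secreted matrix protein and common YAP reporter, was at 77.7 and 78.4 FPKM in Std and 43 and 44 FPKM in 2i (log2 -0.83, SE 0.11, limma adjusted p = 0.0039). Ccn2, a reporter of the same kind, was at 21.5 and 30.8 FPKM in Std and 34.7 and 29.5 FPKM in 2i and did not pass (log2 0.30, SE 0.20, limma adjusted p = 0.344). The 2 reporters thus did not move together. Wwtr1, which encodes the YAP partner TAZ, rose (log2 1.34, adjusted p = 0.00475). F3, tissue factor (log2 -2.34, adjusted p = 0.00989), and the cofactor gene Vgll3 (log2 -1.31, adjusted p = 0.0149) fell. These counts became 1 higher and 2 lower without Std library 1 on LN511 and 1 higher and 1 lower without Std library 2 on LN511. F3 did not pass without Std library 2 on LN511 (adjusted p = 0.0618) and Vgll3 did not pass without either Std library on LN511 or 2i library 1 on LN511 (adjusted p 0.0529 to 0.0642). F3 did not pass with a fit of the 4 LN511 libraries alone (adjusted p = 0.0572). The authors' deposited gene table puts F3 at 0.48.

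The cells' own matrix genes moved both ways. Of the basement membrane list, 19 of the 30 were tested, 8 were too low, 2 were set aside for doubtful zeros and 1 was not analysed here. Among those tested 6 rose, 4 fell and 9 did not pass, where 8.58% of all genes rose and 9.95% fell. Their median log2 difference was 0.21. With genes with doubtful zeros kept, 5 rose and 5 fell, with a median of 0. Nid1, the linker between laminin and collagen networks, was at 10.1 and 11.3 FPKM in Std and 65.8 and 53.9 FPKM in 2i (log2 2.37, SE 0.14, limma adjusted p = 0.000206). Fn1, fibronectin, was at 61.4 and 50.2 FPKM in Std and 156 and 124 FPKM in 2i (log2 1.31, SE 0.14, limma adjusted p = 0.0016). Sparc, a collagen-binding matrix protein, was at 93.5 and 95.2 FPKM in Std and 165 and 185 FPKM in 2i (log2 0.88, SE 0.09, limma adjusted p = 0.0017). In each of these genes both 2i libraries lay clearly above both Std libraries. Nid2 rose less (log2 0.54, adjusted p = 0.00736). Col18a1, a basement membrane collagen, fell from 120.2 and 127 to 55 and 53 FPKM (log2 -1.18, adjusted p = 0.000383). Single libraries moved the counts, to 4 higher and 2 lower without Std library 1 on LN511 or 2i library 1 on LN511 and 5 higher and 2 lower without Std library 2 on LN511.

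The laminin chain genes did not move as a group. Of the chains of the coating protein, Lama5 was at 38.5 and 33.3 FPKM in Std and 47.1 and 36.6 FPKM in 2i and did not pass (log2 0.21, SE 0.20, limma adjusted p = 0.523), Lamb1 was at 40.8 and 15.5 FPKM in Std and 3.83 and 5.15 FPKM in 2i and fell (log2 -2.27, SE 0.43, limma adjusted p = 0.0147), and Lamc1 was at 48.3 and 49.5 FPKM in Std and 87.7 and 108 FPKM in 2i and rose (log2 0.98, SE 0.24, limma adjusted p = 0.035). The Std libraries of Lamb1 differed from each other by more than those of the other chains. Lama1, the chain of laminin-111, did not pass, at 4.33 and 4.73 FPKM in Std and 6.94 and 7.08 FPKM in 2i (log2 0.54, SE 0.30, limma adjusted p = 0.277). The beta chain gene Lamb2 rose (log2 1.44, adjusted p = 0.0171). Lamb1 did not pass without 2i library 1 on LN511 (adjusted p = 0.0676), Lamc1 did not pass without any 1 of the 4 libraries on LN511 or either Std library on gelatin (adjusted p 0.0627 to 0.146) and Lamb2 did not pass without either Std library on LN511 or 2i library 1 on LN511 (adjusted p 0.0586 to 0.0886). Lamc1 did not pass with no filter on low values or genes with doubtful zeros kept (adjusted p 0.0502 to 0.0548) and Lamb1 and Lamb2 did not pass with a fit of the 4 LN511 libraries alone (adjusted p 0.0614 to 0.0741). The authors' deposited gene table gives Lama1 a difference of -1.21.

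Genes of matrix proteolysis moved both ways. Here 20 of the 27 were tested, 6 were too low and 1 was not analysed here. Among those tested 4 rose, 5 fell and 11 did not pass, where 8.58% of all genes rose and 9.95% fell. Their median log2 difference was 0.01. Plaur, the urokinase receptor, was at 28.4 and 36.9 FPKM in Std and 3.14 and 3.19 FPKM in 2i (log2 -3.00, SE 0.23, limma adjusted p = 0.000513). Serpine2, an inhibitor of plasminogen activators and thrombin, was at 14.7 and 16.6 FPKM in Std and 3.38 and 3.23 FPKM in 2i (log2 -1.95, SE 0.21, limma adjusted p = 0.0017). In both genes the 2i libraries were close together and far below the Std libraries. The metalloproteases Mmp11 (log2 -1.38, adjusted p = 0.0145) and Adamts1 (log2 -1.72, adjusted p = 0.00629) also fell, whereas the lysosomal protease Ctsb (log2 0.99, adjusted p = 0.00281), the cathepsin inhibitor Cst3 (log2 0.61, adjusted p = 0.00882) and the sheddases Adam9 (log2 0.79, adjusted p = 0.0191) and Adam10 (log2 0.80, adjusted p = 0.0292) rose. With 1 library left out there were 1 higher and 4 lower without Std library 1 on LN511 and 2 higher and 4 lower without Std library 2 on LN511 or 2i library 2 on LN511. Mmp11 and Adam9 did not pass without either Std library on LN511 or 2i library 2 on LN511 (adjusted p 0.0573 to 0.091), Cst3 did not pass without Std library 1 on LN511 (adjusted p = 0.0535) and Adam10 did not pass without any 1 of the 4 libraries on LN511 (adjusted p 0.0841 to 0.122). Adam9 and Adam10 did not pass with a fit of the 4 LN511 libraries alone (adjusted p 0.0661 to 0.0735).

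Eph receptors, which sense ephrins on neighbouring cells, differed by member. In the list of receptors and ephrins, 15 of the 19 were tested, 3 were too low and 1 was not analysed here. Among those tested 4 rose, 3 fell and 8 did not pass, where 8.58% of all genes rose and 9.95% fell. Their median log2 difference was 0.58. Epha1 was at 21.6 and 23 FPKM in Std and 1.14 and 0.763 FPKM in 2i (log2 -3.58, SE 0.26, limma adjusted p = 0.00043). Epha2 was at 132 and 136 FPKM in Std and 33.6 and 33.7 FPKM in 2i (log2 -1.96, SE 0.11, limma adjusted p = 0.000154). Epha2 was the more abundant of these receptors in both media, and both fell. The ligand gene Efna4 (log2 1.91, adjusted p = 0.0027) and the receptor gene Epha4 (log2 2.14, adjusted p = 0.0194) rose. The counts moved to 1 higher and 2 lower without any 1 of the 4 libraries on LN511. Epha4 did not pass without any 1 of the 4 libraries on LN511 (adjusted p 0.0676 to 0.0946).

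Wnt target genes were the list with the largest share of genes that rose among the adhesion, epithelial and Wnt lists. Of its members, 16 of the 26 were tested, 9 were too low and 1 was set aside for doubtful zeros. Among those tested 6 rose, 4 fell and 6 did not pass, with a median log2 difference of 0.49. The 6 of 16 that rose are to be read against 8.58% over all genes, and the 4 that fell against 9.95%. On gelatin 3 rose and 2 fell, with a median of 0.17. These counts became 3 higher and 2 lower without Std library 2 on LN511 or either 2i library on LN511.

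Cdx1, a homeobox gene that TCF factors activate directly, was at 2.05 and 1.23 FPKM in Std and 34 and 38.9 FPKM in 2i (log2 3.84, SE 0.29, limma adjusted p = 0.000471). Sp5, a zinc finger repressor that Wnt signals induce in most tissues, was at 0.744 and 0.730 FPKM in Std and 8.88 and 6.72 FPKM in 2i (log2 2.33, SE 0.29, limma adjusted p = 0.00317). Tnfrsf19, a receptor of the TNF family, was at 1.56 and 1.53 FPKM in Std and 8.31 and 7.43 FPKM in 2i (log2 1.80, SE 0.25, limma adjusted p = 0.00471). All 3 genes were at or under about 2 FPKM in both Std libraries and several times higher in both 2i libraries. For Sp5 these levels are about 4 and 4 fragments in Std and 45 and 33 in 2i at the estimated depth. Axin2, the negative-feedback gene that is the usual reporter of the pathway, was at 2.34 and 0.999 FPKM in Std and 8.66 and 5.63 FPKM in 2i, about 27 and 12 fragments in Std and 89 and 56 in 2i (log2 1.63, SE 0.38, limma adjusted p = 0.029). Axin2 did not pass without Std library 2 on LN511 or either 2i library on LN511 (adjusted p 0.0555 to 0.131). Axin2 did not pass with no filter on low values or a fit of the 4 LN511 libraries alone (adjusted p 0.0508 to 0.0814).

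The remaining genes that rose were less certain. T (Brachyury), a mesoderm factor, is listed at 0 in both Std libraries and was at 1.27 and 1.08 FPKM in 2i, about 6 and 5 fragments (limma adjusted p = 0.0251). Cited1, a transcription cofactor, was at 1.34 and 0 FPKM in Std and 10.6 and 9.65 FPKM in 2i (log2 2.86, SE 0.76, limma adjusted p = 0.0446). Both rest on few fragments in Std. T did not pass without any 1 of the 4 libraries on LN511 (adjusted p 0.0706 to 0.0868) and Cited1 did not pass without any 1 of the 4 libraries on LN511 or either Std library on gelatin (adjusted p 0.0592 to 0.201). Cited1 did not pass with a pseudocount of 0.1, no filter on low values, genes with doubtful zeros kept or the authors' deposited gene table (adjusted p 0.0649 to 0.123) and T did not pass with a fit of the 4 LN511 libraries alone (adjusted p = 0.0514).

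The TCF/LEF core occurs in 3 of the 8 windows of the 6 Wnt targets that rose (37.5%), those of Sp5, T and Tnfrsf19, and in 16% of all windows. The promoters of Sp5 and Tnfrsf19 are shown because these genes passed under every alternative that tested them and hold the core. The 250 bases of Sp5 are GRCm38.p6 chr2:70474673-70474922, plus strand, with the matches in capitals, written CTTTGA because the core lies on the other strand, their first bases at -204 and -104 from the start. Those of Tnfrsf19 are chr14:61037988-61038237, minus strand, with the match at -201, and belong to 1 of 2 start sites that RefSeq gives the gene, the other window having no match in its upstream part.
Sp5: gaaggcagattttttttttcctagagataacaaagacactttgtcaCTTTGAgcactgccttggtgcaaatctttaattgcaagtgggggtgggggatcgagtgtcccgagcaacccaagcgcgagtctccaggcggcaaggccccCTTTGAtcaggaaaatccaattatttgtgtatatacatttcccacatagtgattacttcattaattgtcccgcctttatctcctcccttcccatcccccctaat
Tnfrsf19: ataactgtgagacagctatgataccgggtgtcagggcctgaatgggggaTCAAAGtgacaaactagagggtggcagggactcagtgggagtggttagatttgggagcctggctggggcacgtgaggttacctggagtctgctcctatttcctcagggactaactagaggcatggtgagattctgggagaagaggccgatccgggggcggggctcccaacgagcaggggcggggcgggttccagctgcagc

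Other genes of the Wnt target list fell. Myc, a growth regulator that ERK signals also induce, was at 38.6 and 40.8 FPKM in Std and 4.54 and 7.07 FPKM in 2i (log2 -2.60, SE 0.32, limma adjusted p = 0.00304). Ccnd1, cyclin D1, likewise a target of both pathways, was at 79.4 and 80.7 FPKM in Std and 34 and 34.8 FPKM in 2i (log2 -1.19, SE 0.12, limma adjusted p = 0.00157). Both of these genes are also on the list of ERK targets. Bmp4, a secreted ligand, was at 3.98 and 5.33 FPKM in Std and 0.875 and 1.22 FPKM in 2i (log2 -1.46, SE 0.33, limma adjusted p = 0.027), and Lef1, a partner of beta-catenin and itself a target, at 2.13 and 5.17 FPKM in Std and 0.743 and 0.693 FPKM in 2i (log2 -1.36, SE 0.35, limma adjusted p = 0.0413). Bmp4 did not pass without any 1 of the 4 libraries on LN511 (adjusted p 0.0702 to 0.121) and Lef1 did not pass without Std library 2 on LN511, either 2i library on LN511 or any 1 of the 4 libraries on gelatin (adjusted p 0.0677 to 0.143). Bmp4 did not pass with a pseudocount of 0.1 (adjusted p = 0.0557), Lef1 did not pass with a pseudocount of 5, no filter on low values, genes with doubtful zeros kept or quantile normalization (adjusted p 0.0551 to 0.0698) and Bmp4 and Lef1 did not pass with a fit of the 4 LN511 libraries alone (adjusted p 0.0555 to 0.119). The authors' deposited gene table puts Bmp4 at 1.03 (adjusted p = 0.12).

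**Figure D4:**
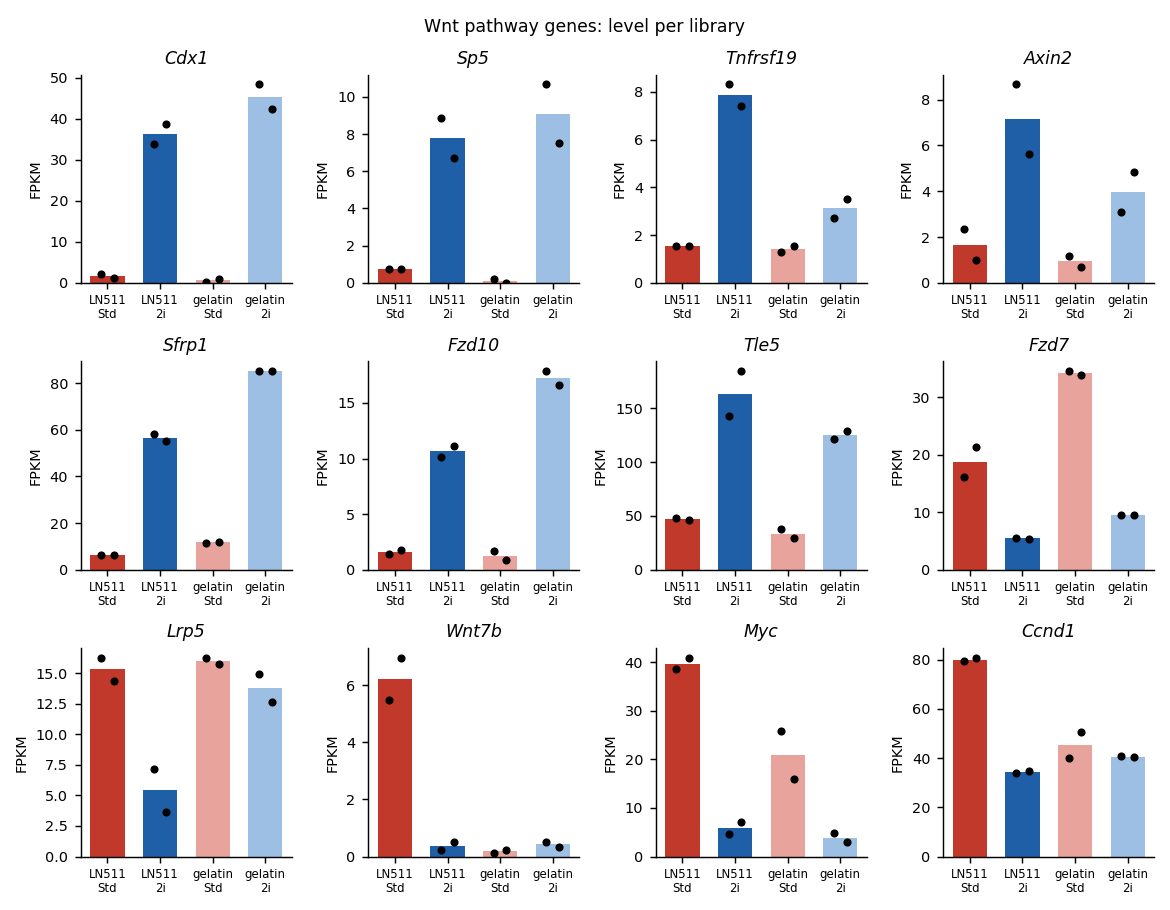
Level in FPKM (vertical axis, from 0) of 12 genes of the Wnt pathway in the 4 groups, with 1 point per library and a bar at the mean of the 2 libraries of a group. Cdx1, Sp5, Tnfrsf19, Axin2, Sfrp1, Fzd10 and Tle5 have both LN511 2i libraries above both LN511 Std libraries, and Fzd7, Lrp5, Wnt7b, Myc and Ccnd1 have them below.

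Ligands, receptors and secreted inhibitors of the pathway moved both ways. Of these, 20 of the 37 were tested, 16 were too low and 1 was not analysed here, Lrp6 being the last. Among those tested 3 rose, 5 fell and 12 did not pass, where 8.58% of all genes rose and 9.95% fell. Their median log2 difference was 0.01. Sfrp1, a secreted inhibitor that binds Wnt proteins, was at 6.38 and 6.10 FPKM in Std and 58.3 and 55 FPKM in 2i (log2 2.99, SE 0.11, limma adjusted p = 4.8e-05). Its relative Sfrp2 went the other way, at 6.86 and 8.85 FPKM in Std and 0.327 and 1.89 FPKM in 2i (log2 -2.17, SE 0.40, limma adjusted p = 0.0134). Wnt7b, the ligand, was at 5.48 and 6.95 FPKM in Std and 0.246 and 0.501 FPKM in 2i (log2 -2.39, SE 0.27, limma adjusted p = 0.00216). In all 3 genes the 2i and Std libraries lay far apart. Among the Frizzled receptors, Fzd10 rose from 1.39 and 1.73 to 10.2 and 11.1 FPKM (log2 2.19, SE 0.26, limma adjusted p = 0.00282) and Fzd5 rose less (log2 0.77, adjusted p = 0.0187), while Fzd7 was at 16.2 and 21.3 FPKM in Std and 5.57 and 5.29 FPKM in 2i (log2 -1.61, SE 0.17, limma adjusted p = 0.00176) and Fzd2 also fell (log2 -1.13, adjusted p = 0.0276). Lrp5, a co-receptor, was at 16.2 and 14.4 FPKM in Std and 7.15 and 3.65 FPKM in 2i (log2 -1.40, SE 0.28, limma adjusted p = 0.0168). Single libraries moved the counts, to 2 higher and 2 lower without either Std library on LN511. Fzd5 did not pass without either Std library on LN511 or 2i library 1 on LN511 (adjusted p 0.0616 to 0.0879), Fzd2 did not pass without any 1 of the 4 libraries on LN511 (adjusted p 0.0604 to 0.128) and Lrp5 and Sfrp2 did not pass without either Std library on LN511 (adjusted p 0.0545 to 0.0893). Fzd2 did not pass with no filter on low values (adjusted p = 0.0505) and Fzd5, Fzd2, Lrp5 and Sfrp2 did not pass with a fit of the 4 LN511 libraries alone (adjusted p 0.0634 to 0.081).

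The intracellular part of the pathway was mostly not called. Of its genes, 22 of the 27 were tested, 4 were set aside for doubtful zeros and 1 was not analysed here. Among those tested 4 rose, 1 fell and 17 did not pass, where 8.58% of all genes rose and 9.95% fell. Their median log2 difference was 0.13. Ctnnb1, beta-catenin itself, was at 202 and 205 FPKM in Std and 200.4 and 193 FPKM in 2i and did not pass (log2 -0.05, SE 0.06, limma adjusted p = 0.63). Its 2i libraries lay just under its Std libraries. Tle5, a short Groucho-family protein that relieves repression by its relatives, was at 48.2 and 46.1 FPKM in Std and 142 and 184 FPKM in 2i (log2 1.76, SE 0.16, limma adjusted p = 0.00093). Ctbp2, a corepressor, was at 126 and 117 FPKM in Std and 56.1 and 43.6 FPKM in 2i (log2 -1.28, SE 0.16, limma adjusted p = 0.00335). Gsk3b, the kinase that 2i inhibits, was at 5.30 and 4.22 FPKM in Std and 10.6 and 8.67 FPKM in 2i (log2 0.89, adjusted p = 0.0318), and rose. Tcf7l2, a TCF factor, is listed at 0 in both Std libraries and was at 2.36 and 2.17 FPKM in 2i (adjusted p = 0.0265). Tcf7l1, the TCF repressor of embryonic stem cells, could not be tested because of a 0 in 1 library, at 12.2 and 12.4 FPKM in Std and 0 and 22.3 FPKM in 2i. With 1 library left out there were 2 higher and 1 lower without Std library 1 on LN511 or 2i library 2 on gelatin and 1 higher and 1 lower without Std library 2 on LN511 or either 2i library on LN511. Gsk3b did not pass without any 1 of the 8 libraries (adjusted p 0.0504 to 0.135) and Tcf7l2 did not pass without any 1 of the 4 libraries on LN511 (adjusted p 0.0882 to 0.104). Gsk3b did not pass with a fit of the 4 LN511 libraries alone (adjusted p = 0.0922).

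Lists of pluripotency and signalling genes describe the state of these cells, and their counts are to be read against 8.58% higher and 9.95% lower over all genes. Of 20 naive pluripotency genes tested, 12 rose and 2 fell (median 1.31), among them Klf2 at 12.5 and 9.58 FPKM in Std and 108 and 136 FPKM in 2i (log2 3.36, SE 0.17, limma adjusted p = 0.000132), Tfcp2l1 at 8.69 and 7.28 FPKM in Std and 135 and 94.4 FPKM in 2i (log2 3.67, SE 0.19, limma adjusted p = 0.000139) and the enzyme gene Tdh (log2 2.11, adjusted p = 4.8e-05). Gbx2, 1 of the 2 that fell, was at 39.5 and 44.5 FPKM in Std and 4.78 and 8.39 FPKM in 2i (log2 -2.54, adjusted p = 0.00119). Of 13 formative and primed genes tested, 8 fell and 1 rose (median -1.67), with Pou3f1, Tcf15 and Dnmt3a, given above, among the lower. Of 17 ERK targets tested, 10 fell and none rose (median -1.09), with Spry4, a feedback inhibitor, at 25.8 and 25.9 FPKM in Std and 1.37 and 1.72 FPKM in 2i (log2 -3.40, SE 0.18, limma adjusted p = 0.000154). Of 10 core pluripotency genes tested, Sox2 rose (log2 0.40, adjusted p = 0.0152) and Utf1 (log2 -2.24, adjusted p = 0.000154), Lin28a (log2 -1.57, adjusted p = 0.00133) and Tdgf1 (log2 -0.82, adjusted p = 0.000651) fell. Of 11 genes of Nodal and TGF-beta signalling tested, none rose and 3 fell, Lefty1 and the SMAD corepressor gene Skil (log2 -2.26, adjusted p = 0.000965) among them. Sox2 did not pass without either Std library on LN511 (adjusted p 0.0643 to 0.0787). Sox2 did not pass with a fit of the 4 LN511 libraries alone (adjusted p = 0.051). The 2 naive genes that fell became 1 without Std library 2 on LN511 or either 2i library on LN511 and in a fit of the 4 LN511 libraries alone. The 8 formative and primed genes that fell became 5 without Std library 1 on LN511 or either 2i library on LN511, and the 1 that rose became 0 without any 1 of the 4 LN511 libraries or either Std library on gelatin. The 10 ERK targets became 6 without Std library 1 on LN511 or 2i library 1 on LN511 and 5 without Std library 2 on LN511.

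Further lists covered organelles and metabolism, to be read against the same shares of 8.58% higher and 9.95% lower. Of 26 lysosomal genes tested, 8 rose and 1 fell (median 0.31), with Psap, the precursor of the saposins, at 74.6 and 74.5 FPKM in Std and 209 and 239 FPKM in 2i (log2 1.57, SE 0.09, limma adjusted p = 0.000181) and the cholesterol carrier gene Npc2 (log2 1.45, adjusted p = 0.00078) and the tetraspanin gene Cd63 (log2 1.12, adjusted p = 0.000906) among those that rose, and Laptm4b falling (log2 -1.51, adjusted p = 0.00335). Of 22 hypoxia targets tested, 10 fell and 1 rose (median -0.41). Pdk1, a mitochondrial kinase that inhibits pyruvate dehydrogenase, was at 43 and 47.7 FPKM in Std and 2.97 and 3.86 FPKM in 2i (log2 -3.40, SE 0.17, limma adjusted p = 0.000136), Slc2a1, the glucose transporter, at 291 and 286 FPKM in Std and 87.4 and 101 FPKM in 2i (log2 -1.61, SE 0.09, limma adjusted p = 0.000191), and Ddit4 also fell (log2 -1.77, adjusted p = 0.000261). Kdm3a, a histone demethylase gene, was the 1 that rose (log2 0.78, adjusted p = 0.0499). Kdm3a did not pass without any 1 of the 4 libraries on LN511 or either 2i library on gelatin (adjusted p 0.0833 to 0.183). Kdm3a did not pass with a pseudocount of 0.1, no filter on low values, genes with doubtful zeros kept, quantile normalization or a fit of the 4 LN511 libraries alone (adjusted p 0.0528 to 0.0667). The 10 hypoxia targets that fell became 7 without either Std library on LN511 or either 2i library on gelatin, and the 1 lysosomal gene that fell became 2 without 2i library 1 on LN511.

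Of 16 genes of the ATF4 and amino acid list tested, 4 rose and 4 fell, and over all genes 8.58% rose and 9.95% fell. Asns, asparagine synthetase, was at 134 and 131 FPKM in Std and 571 and 591 FPKM in 2i (log2 2.12, SE 0.08, limma adjusted p = 5.32e-05), whereas the amino acid transporter Slc38a2 was at 143 and 144 FPKM in Std and 37.2 and 22.5 FPKM in 2i (log2 -2.27, SE 0.22, limma adjusted p = 0.00112). These genes lay far apart in opposite directions, and the enzyme Shmt2 (log2 0.70, adjusted p = 0.00887) and the stress protein gene Nupr1 (log2 1.80, adjusted p = 0.0057) rose while the transporter Slc7a3 fell (log2 -1.19, adjusted p = 0.000906). Of 24 genes of oxidative phosphorylation tested, 4 rose and none fell (median 0.10), with Uqcrc1 (log2 0.57, adjusted p = 0.0136) among them. Of 15 genes of antigen presentation tested, 6 rose and 1 fell (median 0.11), with Tapbp, the peptide-loading factor tapasin, at 5.38 and 4.59 FPKM in Std and 22.1 and 20.2 FPKM in 2i (log2 1.89, SE 0.20, limma adjusted p = 0.00162), Ifitm2 (log2 0.87, adjusted p = 0.00318) and Calr (log2 0.49, adjusted p = 0.00397) rising and Bst2 falling (log2 -0.99, adjusted p = 0.00339). The genes of the ATF4 list that rose became 2 without Std library 2 on LN511. Leaving out 1 library moved the count of genes that rose to as few as 1 for oxidative phosphorylation (without Std library 1 on LN511 or 2i library 2 on LN511) and 3 for antigen presentation (without either Std library on LN511 or 2i library 2 on LN511). The count that fell became 1 for oxidative phosphorylation without 2i library 2 on LN511 and 2 for antigen presentation without either 2i library on LN511. Shmt2 did not pass without Std library 2 on LN511 (adjusted p = 0.0577) and Uqcrc1 did not pass without Std library 1 on LN511 or 2i library 2 on LN511 (adjusted p 0.0567 to 0.0672). Nupr1 and Uqcrc1 did not pass with a fit of the 4 LN511 libraries alone (adjusted p 0.0501 to 0.0689).

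Markers of other cell types that the cultures could hold were, in sum, low beside those of embryonic stem cells. Their counts are to be read against 8.58% higher and 9.95% lower over all genes. The summed level of 12 primitive endoderm markers was 23 and 23.6 FPKM in Std and 3.76 and 5.17 FPKM in 2i. Most of it came from Lrp2, an endocytic receptor, at 17.8 and 17 FPKM in Std and 2.64 and 2.52 FPKM in 2i (log2 -2.36, SE 0.23, limma adjusted p = 0.00125). The defining factors Gata4, Gata6 and Sox17 were each under 1 FPKM in all 4 LN511 libraries, and Afp and Ttr were at 0. Of the 3 members tested 1 fell and none rose. The 12 fibroblast markers summed to 5.35 and 6.78 FPKM in Std and 1.92 and 2.86 FPKM in 2i, with Postn, Lum and Prrx1 at 0 and Thy1 falling among 3 tested (log2 -1.17, adjusted p = 0.0285). The 14 trophoblast markers, which include Krt7, summed to 47.4 and 38.9 FPKM in Std and 34.2 and 38.8 FPKM in 2i, with the higher 2i library just under the lower Std library, with Tpbpa at 0, Elf5 at most at 0.194 FPKM, and of 9 tested Hand1, listed at 0 in 2i (adjusted p = 0.00721), and Krt7 falling and Ets2 rising (log2 1.51, adjusted p = 0.0116). The 10 mesendoderm markers, which include T, summed to 0.940 and 2.61 FPKM in Std and 5.51 and 6.41 FPKM in 2i and the 10 neuroectoderm markers, which include Nes, to 56.1 and 66.8 FPKM in Std and 71.8 and 54.1 FPKM in 2i. Of these, T rose among 3 tested and Nes fell among 5 tested, and Mesp1, Cer1, Pax6 and Neurog2 were at 0. Other neuroectoderm members were present in all 4 libraries. Olig2 was at about 142 and 147 fragments in Std and 255 and 162 in 2i. Tubb3 was at about 104 and 105 fragments in Std and 89 and 73 in 2i. The libraries without which T, Nes and Krt7 do not pass are named above. The part of such markers in the changes of keratin and adhesion genes was not tested. Thy1 did not pass without any 1 of the 4 libraries on LN511 (adjusted p 0.0582 to 0.109) and Ets2 did not pass without Std library 2 on LN511 or 2i library 2 on LN511 (adjusted p 0.0539 to 0.0574). Thy1 and Ets2 did not pass with a fit of the 4 LN511 libraries alone (adjusted p 0.0542 to 0.0614) and Thy1 did not pass with the authors' deposited gene table (adjusted p = 0.448).

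The same contrast on gelatin gave 1583 genes (15.4%), 843 of them higher (8.20%) and 740 lower (7.20%), with a median difference of 0.00 over all genes. Of the 882 genes that rose on LN511, 490 (55.6%) also rose on gelatin and 5 (0.567%) fell there. Of the 1023 that fell on LN511, 477 (46.6%) also fell on gelatin and 17 (1.66%) rose there. Across the genes tested the Pearson correlation of the differences on the 2 coatings was 0.6, a description over genes, which are not replicates. Omission of a gelatin library brought the gelatin count to 811 (Std library 1), 767 (Std library 2), 648 (2i library 1) or 688 (2i library 2). Of the genes that rose on both, Cdx1 was at 0.267 and 1.00 FPKM in Std and 48.4 and 42.3 FPKM in 2i on gelatin (log2 4.86) and Nanog at 56.7 and 53.1 FPKM in Std and 446 and 455 FPKM in 2i (log2 3.02).

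Whether 2i acted differently on the 2 coatings was tested gene by gene as the difference between the effects. This interaction passed for 19 genes (0.185%), with 14 (0.136%) negative, meaning an effect that was more negative on LN511 than on gelatin, and 5 (0.0486%) positive. Of the genes that fell on LN511, 11 (1.08%) had a negative interaction and 0 a positive one. Of the genes that rose on LN511, 4 (0.454%) had a positive one and 0 a negative one. The interaction contains the LN511 effect by which these genes were picked, so this split is largely built in. An interaction does not say on which coating the effect was larger in size, since some of these genes moved in opposite directions on the 2 coatings. The count is fragile: it was 0 without Std library 1 on LN511, Std library 1 on gelatin or Std library 2 on gelatin, 2 without Std library 2 on LN511, 2i library 1 on gelatin or 2i library 2 on gelatin, 6 without 2i library 1 on LN511 and 11 without 2i library 2 on LN511. At an unadjusted p under 0.05 there were 1251 genes.

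Several of the 19 belong to the epithelial and adhesion lists. Krt8 was at 4.77 and 5.19 FPKM in Std and 9.51 and 11.9 FPKM in 2i on gelatin, where it rose (log2 0.96, SE 0.16, limma adjusted p = 0.0107), so that its effect on LN511 minus that on gelatin was -3.66, SE 0.22, limma adjusted p = 0.0114. Sfn was at 25.3 and 22.1 FPKM in Std and 43.8 and 40.3 FPKM in 2i on gelatin (log2 0.80, SE 0.12, limma adjusted p = 0.00715), with an interaction of -2.32, SE 0.17, limma adjusted p = 0.0114. In both genes the highest level of the 8 libraries was in LN511 Std and the lowest in gelatin Std. Anxa1 fell on LN511 and rose on gelatin, where it was at 1.04 and 1.47 FPKM in Std and 6.41 and 6.76 FPKM in 2i (log2 1.76, SE 0.26, limma adjusted p = 0.00665), with an interaction of -3.31, SE 0.36, limma adjusted p = 0.0395. Lgals1 was at 25.8 and 33.8 FPKM in Std and 32.4 and 31.3 FPKM in 2i on gelatin and did not pass there (log2 0.11, SE 0.15, limma adjusted p = 0.687), with an interaction of -2.08, SE 0.21, limma adjusted p = 0.032. Its gelatin libraries all lay near the LN511 2i libraries. The YAP reporter Ccn1, at 11.3 and 10.4 FPKM in Std and 16.9 and 16.1 FPKM in 2i on gelatin (log2 0.56, SE 0.11, limma adjusted p = 0.0185), had an interaction of -1.39, SE 0.15, limma adjusted p = 0.0415, and the filamin gene Flna, at 55.4 and 57.1 FPKM in Std and 62.9 and 67.6 FPKM in 2i on gelatin (log2 0.21, SE 0.09, limma adjusted p = 0.165), 1 of -1.07, SE 0.12, limma adjusted p = 0.0422.

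Other genes of these lists had large differences between the coatings that did not pass this test. Krt18 was at 10.2 and 10.7 FPKM in Std and 4.52 and 3.66 FPKM in 2i on gelatin (log2 -1.18, SE 0.26, limma adjusted p = 0.0292), with an interaction of -1.95, SE 0.37, limma adjusted p = 0.13. Krt19 was at 2.13 and 2.99 FPKM in Std and 1.27 and 2.09 FPKM in 2i on gelatin (log2 -0.41, SE 0.28, limma adjusted p = 0.392), with an interaction of -2.52, SE 0.40, limma adjusted p = 0.0898. Unlike Krt8, Krt18 fell on both coatings. Cnn2 was at 14.7 and 17.9 FPKM in Std and 18.7 and 21.9 FPKM in 2i on gelatin (log2 0.30, SE 0.15, limma adjusted p = 0.225), with an interaction of -1.68, SE 0.21, limma adjusted p = 0.0519. Wnt7b was at 0.130 and 0.243 FPKM in Std and 0.524 and 0.326 FPKM in 2i on gelatin, under 1 FPKM throughout, with an interaction of -2.65, SE 0.38, limma adjusted p = 0.0703. S100a6 fell on both, at 14.8 and 10.01 FPKM in Std and 1.85 and 3.47 FPKM in 2i on gelatin (log2 -1.89, SE 0.37, limma adjusted p = 0.0189), with an interaction of -1.70, SE 0.52, limma adjusted p = 0.275.

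**Figure D5:**
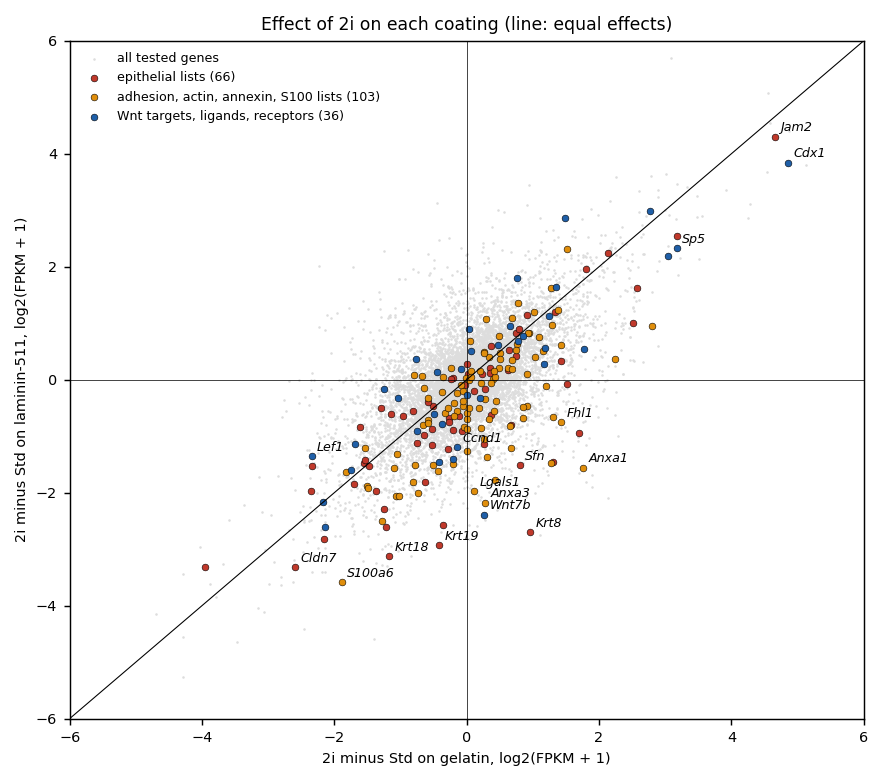
Difference between 2i and Std medium on LN511 (vertical axis) against that on gelatin (horizontal axis), both in log2(FPKM + 1), for all genes tested (grey) and for members of the epithelial (red), adhesion, actin, annexin and S100 (orange) and Wnt (blue) lists; the line marks equal effects. Jam2, Cdx1 and Sp5 lie near the line at upper right, Cldn7 near it at lower left, and Krt8, Anxa1 and Sfn lie in the lower right part, where the effects have opposite signs.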

How the data were processed

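Total RNA of the 8 libraries was sequenced by the submitters, and expression was deposited by the authors as FPKM per transcript and per gene. The submitters' processing notes name TopHat2 2.1.1, Cufflinks 2.1.1 and mm10, and neither the annotation nor the strand setting was given in the sources used here. Of 32688 RefSeq transcripts, 31786 were matched to a symbol through the RefSeq table (902 were not), and their FPKM were summed per gene. The 21844 transcripts assembled by Cufflinks were left out, and 0 sample columns were left out. The deposited gene table was not the main source because it lists at 0 47.3% of the 52481 values that the sums put at 1 FPKM or more.

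A gene was kept where 2 or more libraries reached 1 FPKM. Genes were set aside as doubtful zeros where 1 replicate of a group was at 0 with the other at 5 FPKM or more (836 genes), or a group was at 0 with the mean of another at 5 FPKM or more (130). The remaining 10278 were fitted with limma 3.58.1 (R 4.3.3, trend) on log2(FPKM + 1, the pseudocount), with 4 group means over all 8 libraries, contrasts within each coating and their difference, and Benjamini-Hochberg adjusted p-values at a threshold of 0.05. The method was tested on simulated data. Depth, estimated from the most common low value within a set range of depths, was 2210000 to 2710000 fragments.

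Genes named are the 10 highest and 10 lowest changes that passed at a mean of 5 FPKM or more, up to 6 members per direction of the Wnt, adhesion, cytoskeleton and epithelial lists and up to 3 of other lists by adjusted p, the interaction's extremes, and a panel of defining genes. Of these, some, mostly ones whose calls several left-out libraries ended, stand in the counts only. Results for some items are not reported here. Members and lists were chosen with earlier results of these data known. In the labels, replicates of different groups share no more than a number, so the main fit has no block. Alternatives tried were pseudocounts of 0.1 and 5, no filter, a filter of 5 FPKM, doubtful zeros kept, quantile normalization, the 4 libraries of a coating alone, a replicate block, the gene table and leaving out each library.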

Additional observations from a re-analysis of the deposited data

Results flagged for a closer look

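Each of the following 19 genes stood out because the effect of 2i on LN511 minus that on gelatin passed its own limma test over all genes tested, with values on the log2(FPKM + 1) scale. Genes of the lists described above were Krt8 (-3.66), Anxa1 (-3.31), Sfn (-2.32), Lgals1 (-2.08), Ccn1 (-1.39) and Flna (-1.07) on the negative side, and Atp5a1, a subunit of mitochondrial ATP synthase, on the positive side (1.28). Atp5a1 was at 234 and 260.3 FPKM in Std and 513 and 551 FPKM in 2i on LN511, and at 585 and 565 FPKM in Std and 503 and 517 FPKM in 2i on gelatin. For Krt8 and Sfn the Std libraries of the 2 coatings lay far apart and the 2i libraries close together.

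The other genes fell into a few patterns of level, and genes named here outside the lists were chosen after their values were seen. Rbm12b1 (-4.23), Ddias (-3.79) and Cdh24 (-3.64) are listed at 0 in both gelatin Std libraries. Rbm12b1 and Ddias are also listed at 0 in both LN511 2i libraries. The 3 genes reach at most 4.23 FPKM in any library, so their sizes depend on the pseudocount. Cyb5r1, a reductase gene (-2.32), Rps28, a ribosomal protein gene with many near-identical copies (-1.94), and Ccna2, cyclin A2 (-1.30), were low in gelatin Std and did not pass on LN511. Slc25a4, the mitochondrial ADP/ATP carrier (-1.30), and Glul, glutamine synthetase (-1.21), fell on LN511 and did not pass on gelatin, Glul being at 78.6 and 77.8 FPKM in Std and 31.8 and 28.9 FPKM in 2i on LN511.

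On the positive side stood Mrgpra6 (0.98), Hnrnph3, a splicing factor (1.65), and Xlr3a (2.81) and Xlr3b (3.57). Xlr3a and Xlr3b are near-identical copies on the X chromosome between which reads can be split wrongly, so their separate values are uncertain. In LN511 Std they were at 1.53 and 2.21 FPKM (Xlr3a) and 0.406 and 0.356 FPKM (Xlr3b), below the other 6 libraries. All 19 calls rest on the full set of libraries, since the count fell to 0 without Std library 1 on LN511 or either Std library on gelatin.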

How the results depend on the processing

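The LN511 count of 1905 genes was 962 with the 4 LN511 libraries alone, 326 with the authors' deposited gene table and 861 to 1625 with 1 library left out. The gelatin count of 1583 was 998, 295 and 648 to 1516 in the same order. The 19 genes of the interaction became 41 with a pseudocount of 5, 31 with no filter on low values, 53 with doubtful zeros kept, 65 with the gene table and 0 to 11 with 1 library left out, and it cannot be had from the libraries of 1 coating. With the replicate number as a block the counts were 1497 on LN511, 1219 on gelatin and 1 for the interaction. The alternatives listed above for single genes leave this block out. Under it Cited1, Gsk3b, Kdm3a, Lamc1, Lef1, Tns1 and Vasp did not pass on LN511 either (limma adjusted p 0.0519 to 0.0759). Deviations of same-numbered libraries correlated at -0.02 to 0.019 over the 6 pairs of groups, so no gene-by-gene pattern shared between groups was seen. A shift equal in all genes would not show in such a correlation. Nor can the correlation tell whether same-numbered cultures were grown side by side, which the labels do not say. Signs turned for Actb (-0.08) and Pou5f1 (-0.05) with quantile normalization, for Actb without Std library 1 on LN511 (-0.05) or 2i library 2 on LN511 (-0.03; -0.05 to 0.07 over all single omissions), and with the gene table for Bmp4 (1.03), Dnmt3a (2.58), F3 (0.48) and Lama1 (-1.21). The cause was not tested. Over the 183 named genes and all settings, 2616 values kept their direction and their side of the threshold, 331 kept the direction but did not pass, 3 newly passed and 8 turned. At this depth, changes in genes of a few FPKM rest on few fragments and on replicates too few to show small differences.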

Other observations

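Genes that passed in both coatings but in opposite directions numbered 22, of which 17 fell on LN511 and rose on gelatin and 5 did the reverse. Of these 22, 6 have a whole group listed at 0, Rbm12b1, Ddias and Cdh24 among them. All 22 were looked up after their values were seen. Beside Krt8, Sfn and Anxa1, they held further genes of the cytoskeleton that none of the paragraphs above names. Lasp1, a LIM and SH3 protein of actin structures, was at 123 and 149 FPKM in Std and 64.4 and 88.7 FPKM in 2i on LN511 and 62.7 and 61.6 FPKM in Std and 98.7 and 97.7 FPKM in 2i on gelatin, with an interaction of -1.48, SE 0.23, limma adjusted p = 0.0833. Tagln2, an actin-binding relative of transgelin, was at 79.97 and 99.6 FPKM in Std and 54.6 and 56.8 FPKM in 2i on LN511 and 57.4 and 40.1 FPKM in Std and 89.2 and 85.9 FPKM in 2i on gelatin, with an interaction of -1.52, SE 0.26, limma adjusted p = 0.0975. Lasp1 was highest in the LN511 Std libraries and lowest in the gelatin Std libraries, while the levels of Tagln2 overlapped between groups of the 2 coatings. Fhl1, a LIM protein of muscle and adhesions, was at 16.2 and 17.6 FPKM in Std and 8.90 and 10.3 FPKM in 2i on LN511 and 5.58 and 4.96 FPKM in Std and 18.4 and 13.6 FPKM in 2i on gelatin (-2.18, SE 0.29, limma adjusted p = 0.054), and Plin2, which coats lipid droplets, at 37.1 and 43.1 FPKM in Std and 16.6 and 13.2 FPKM in 2i on LN511 and 6.21 and 8.73 FPKM in Std and 17.9 and 33.3 FPKM in 2i on gelatin (-2.97, SE 0.43, limma adjusted p = 0.0727). None of these 4 interactions passed.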
